A study of Homo sapiens with 12 samples.

Results

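Iron handling and ferroptosis were followed through 10 genes in PC9 cells, a human lung adenocarcinoma line that depends on mutant EGFR. The genes were taken by symbol from a count table of 62754 rows, and each symbol matched 1 row. They comprise CP, which encodes the ferroxidase ceruloplasmin, the ferritin subunits FTH1 and FTL, the ferritin receptor NCOA4, the iron exporter SLC40A1, the iron importers TFRC and SLC11A2, and the ferroptosis genes GPX4, AIFM2 and ACSL4. CP was selected on its measured counts in these 12 libraries, as a gene whose level was high at 28 days, so its values are given as a description and were tested in no comparison. The other 9 genes were chosen for their function, though with earlier results of these data known. They were tested among 17115 genes that passed a filter on low counts, which all 10 passed.

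RNA was sequenced from 12 cultures, 3 in each of 4 groups, all of a subclonal PC9 line and all placed in 1 batch by the labels. The groups were TDP1 WT cells without drug (WT untreated), TDP1 WT cells after 7 days in 1 µM erlotinib (DTC, drug-tolerant cells), TDP1 WT cells after 28 days in 1 µM erlotinib (DTEC, drug-tolerant expanded cells), and TDP1 KO cells of the line KO2 without drug (KO). Erlotinib inhibits the EGFR kinase, and TDP1 is an enzyme that removes trapped topoisomerase 1 from DNA. All groups grew in RPMI-1640 with serum, which brings its own iron, and the cultures of a group were split from a common flask, so p-values measure the spread between sister cultures. KO is 1 line, so the knockout and other differences between the lines cannot be told apart.

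Cells take up transferrin-bound iron through the transferrin receptor (TFRC), carry it out of the endosome through SLC11A2, and store it in ferritin shells built of FTH1 and FTL chains. Iron leaves the cell through ferroportin (SLC40A1), and ceruloplasmin, a copper-containing plasma protein made mainly by the liver, oxidises the exported iron so that transferrin can bind it. Ferroptosis is an iron-dependent death by lipid peroxidation. ACSL4 supplies the oxidisable lipids, while the lipid peroxidase GPX4 and the coenzyme Q reductase AIFM2 (FSP1) act against it.

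Part of this system is set after transcription. Iron regulatory proteins bind a short hairpin, the iron-responsive element, which holds back translation from a 5′ untranslated region and protects the messenger from decay when it lies in the 3′ untranslated region. Transcripts of the 10 genes were searched on the transcript strand for a C, 5 bases, the loop CAGTGN, and 5 bases pairing with those before the loop, G-U pairs allowed. The pattern was found in 4 of the 10 genes, against 168 of 19684 coding genes searched (0.853%). The matches are printed because this hairpin is the known site of iron control in these messengers, with the 6 loop bases in capitals. Sequences and GRCh38 positions are from GENCODE 29, each 29 bases long.
FTH1: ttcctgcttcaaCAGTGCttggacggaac
FTL: ctcttgcttcaaCAGTGTttggacggaac
SLC40A1: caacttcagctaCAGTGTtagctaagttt
TFRC (a): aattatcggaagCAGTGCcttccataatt
TFRC (b): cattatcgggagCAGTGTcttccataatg
TFRC (c): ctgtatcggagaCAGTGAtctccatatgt
TFRC (d): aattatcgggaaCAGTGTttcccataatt
The match in FTH1 lay in the 5′ untranslated region at chr11:61967574-61967602 on the minus strand. That in FTL lay in the 5′ untranslated region at chr19:48965335-48965363 on the plus strand. That in SLC40A1 lay in the 5′ untranslated region at chr2:189580661-189580689 on the minus strand. The 4 matches in TFRC lay in the 3′ untranslated region on the minus strand, at chr3:196050979-196051007 (a), chr3:196050575-196050603 (b), chr3:196050510-196050538 (c) and chr3:196050463-196050491 (d). No match in the other 6 genes says only that this exact pattern, with its 5 paired bases, did not occur in their annotated untranslated regions. Hairpins with an unpaired base in that stem or with another loop were not searched for.

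The libraries held 25572691 to 38373679 estimated counts, and levels are given as CPM, counts scaled to a common library size on totals adjusted by edgeR's TMM method. TDP1 itself was at 28.1, 25.1 and 25.8 CPM in WT untreated and at 10.1, 11.3 and 11.0 CPM in KO, a fall by 1.29 on the log2 scale (adjusted p = 1.3e-05, edgeR quasi-likelihood test). The fall was not particular to KO. In the same test TDP1 was also called lower in DTC than in WT untreated (-0.92) and higher in DTEC than in DTC (0.93). DTEC and WT untreated differed by 0.02, not called. Mitochondrial transcripts took 2.5% to 2.78% of the counts in both untreated groups, 4.43% to 5.41% in DTC and 1.82% to 2.38% in DTEC, and their part in the results below was not tested. DTC replicate 1 stood apart from its group, with a chi-square per degree of freedom of 118 and 73.1 against the other DTC libraries, which differed from each other by 17.5. Summed epithelial markers (EPCAM, CDH1 and keratins, 6 of 6 tested) ran from 10794 to 11394 CPM in WT untreated and 11479 to 12314 in KO, beside 6293 to 7277 in DTC and 9276 to 12151 in DTEC. The choice of scaling matters in DTC: with total counts alone in place of TMM, the median log2 fold change over all genes moved up by 0.35 in DTC against WT untreated and by 0.17 in DTEC against WT untreated, and down by 0.19 in DTEC against DTC. The share of calls that were higher then moved from 50.5% to 68.4%, from 49.7% to 63.7% and from 51.9% to 37.4%.

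CP (chr3:149162410-149222055, minus strand) was near the limit of detection in WT untreated, at 0.567, 0.371 and 0.577 CPM from 19, 11 and 20 counts. It was at 0.913, 0.412 and 0.469 CPM in DTC, from 27, 14 and 16 counts. In DTEC it was at 102, 113 and 142 CPM, from 3339, 2946 and 5180 counts. The DTEC libraries all lay above every other library, and the WT untreated and DTC libraries overlapped. As means, CP was at 0.505 ± 0.116 CPM in WT untreated, 0.598 ± 0.274 in DTC and 119 ± 21.1 in DTEC (SD, n = 3), so the DTEC mean was 235 times that of WT untreated and 199 times that of DTC. In bulk RNA, more cells with the transcript and more transcript per cell cannot be told apart.

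In untreated KO cells CP was above WT untreated, though far below DTEC. It was at 3.90, 3.56 and 3.21 CPM (3.55 ± 0.345, n = 3), from 111, 110 and 116 counts. All 3 KO libraries lay above all WT untreated and DTC libraries, and their mean was 7.04 times that of WT untreated. The description of CP as a gene raised at 28 days and nowhere else therefore fits the 3 WT groups but not KO.

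**Figure D1:**
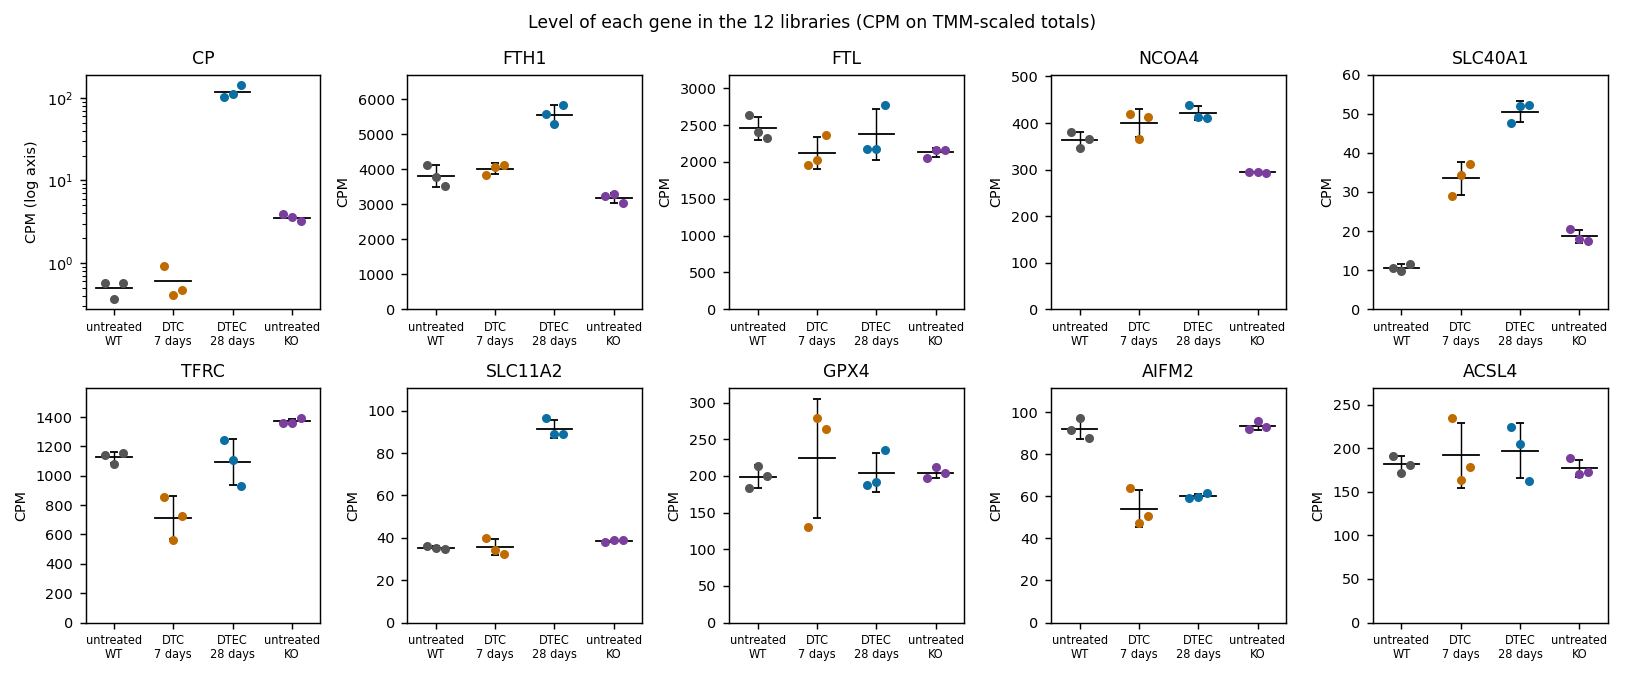
Level of each of the 10 genes by library in CPM, with 3 points for each group, the mean as a line and the SD as a bar (CP on a log axis, without SD). CP was lowest in WT untreated and DTC, 3.21 to 3.90 CPM in KO and 102 to 142 CPM in DTEC. SLC40A1 was at a different level in each group, and SLC11A2 was high in DTEC.

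Hepatocytes are the main source of ceruloplasmin in the body, and their markers were near 0 in these cells. None of 6 hepatocyte markers passed the filter, their summed level was at most 0.75 CPM in any library (0.055 to 0.122 CPM in DTEC), and ALB, TTR and APOH had 3 counts or fewer in each of the 12 libraries. Of 6 leukocyte markers 3 were tested, with sums of 26.9 to 33.8 CPM in WT untreated and 25.9 to 29.3 in KO, beside 38.9 to 55.2 in DTC and 35.1 to 41.5 in DTEC. Their T and B cell genes CD3E and MS4A1 had 3 counts or fewer everywhere, while PTPRC, CD68, LYZ and CD14 had more in some library. All 3 tested leukocyte markers were called higher in DTC, where 34.0% of all genes were, and none was called in DTEC or KO against WT untreated. Of 7 fibroblast and endothelial markers 4 were tested, with sums of 66.5 to 70.3 CPM in WT untreated and 89.1 to 92.3 in KO, beside 96.3 to 106 in DTC and 136 to 153 in DTEC. Against WT untreated, 2 of these 4 were called higher and 1 lower in DTC (34.0% and 33.3% of all genes were). In DTEC 3 were higher and none lower (26.0% and 26.3%), and in KO 2 were higher and none lower (2.76% and 1.55%). COL1A2 and DCN had 3 counts or fewer everywhere. The endothelial gene PECAM1 was at 32.0 ± 3.09 CPM in WT untreated, 8.77 ± 1.08 in DTC, 92.1 ± 2.74 in DTEC and 48.4 ± 2.05 in KO. PECAM1 was thus lower in DTC than in WT untreated, while the sum of the list was higher. The part of these markers in the levels of CP was not tested.

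The last exons of CP overlap HPS3, a lysosome-biogenesis gene on the other strand, and the strand setting of the counting is not given in the sources used here. HPS3 was at 46.5 ± 1.79 CPM in WT untreated, 45.1 ± 4.34 in DTC, 49.5 ± 2.16 in DTEC and 49.5 ± 2.48 in KO and was called in no comparison. Within 500 kb of CP lay 30 other genes, of which 7 were tested. In DTEC against WT untreated 2 of the 7 were called higher and 2 lower, where 26.0% and 26.3% of all tested genes were. The membrane protein gene TM4SF1 and its antisense transcript TM4SF1-AS1 were higher, by 0.29 and 1.77 on the log2 scale. TM4SF1-AS1 was near the limit of detection, at 0.090 CPM in WT untreated, 0.743 in DTC and 0.325 in DTEC as means. GYG1, which primes glycogen synthesis, and WWTR1, the transcriptional co-activator TAZ, fell by 0.77 and 0.79. The neighbours named here were chosen after their values were seen.

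The ferroxidase genes HEPH and HEPHL1 were read beside CP. HEPH, the membrane-bound ferroxidase hephaestin, had 0 counts in WT untreated, DTC and KO and a mean of 0.051 CPM in DTEC. That is below the 0.082 to 0.115 CPM that 3 counts made, too little to show a profile. HEPHL1, a hephaestin-like ferroxidase, was at 1.46, 2.23 and 1.73 CPM in WT untreated, 21.7, 11.7 and 16.5 in DTC, 2.10, 1.18 and 1.10 in DTEC and 5.41, 4.69 and 6.14 in KO. HEPHL1 was therefore high at 7 days, when CP was low, and low at 28 days, when CP was high. In KO both HEPHL1 and CP lay above WT untreated. In edgeR's quasi-likelihood test HEPHL1 rose by 3.20 in DTC (SE 0.273, adjusted p = 1.48e-07) and by 1.59 in KO (SE 0.271, adjusted p = 0.00426) against WT untreated, and fell by 3.50 from DTC to DTEC (SE 0.279, adjusted p = 2.01e-07). HEPHL1 was named after its values were seen.

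Among 9644 genes with a symbol, at least 10 CPM in DTEC and a test, the 5 whose log2 CPM followed CP most closely over the 12 libraries were ALDH5A1 (Pearson r = 0.992), PIM1 (0.992), ABCC3 (0.987), CAMK1D (0.985) and CHN2 (0.984). These correlations are descriptive: the points share 4 groups and the group differences carry them. Both the minimum level in DTEC and the choice by likeness to CP favour genes that are high in DTEC, so the shape of these profiles was fixed by the choice and supports nothing. ALDH5A1, a mitochondrial enzyme of GABA breakdown, was at 27.0 ± 0.666 CPM in WT untreated, 26.8 ± 3.23 in DTC, 69.5 ± 3.71 in DTEC and 36.2 ± 2.38 in KO. PIM1, a kinase induced by cytokine signalling, was at 22.1 ± 1.10, 21.6 ± 0.911, 93.3 ± 0.664 and 33.6 ± 2.18 CPM in the same order. ABCC3, an organic anion exporter, was at 170 ± 9.55, 150 ± 4.45, 587 ± 40.6 and 232 ± 11.3 CPM. CHN2, a Rac GTPase-activating protein, was at 1.13 ± 0.174, 1.06 ± 0.368, 10.1 ± 0.185 and 3.00 ± 0.254 CPM, and it met the minimum of 10 CPM through DTEC alone. Of the other 9 iron and ferroptosis genes, SLC11A2 followed CP most closely (r = 0.962), then FTH1 (0.69) and SLC40A1 (0.685), while GPX4 (-0.083) and AIFM2 (-0.24) did not. CP was chosen for its high level in DTEC, so this order mainly restates which of the 9 genes were high in DTEC and supports nothing.

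**Figure D2:**
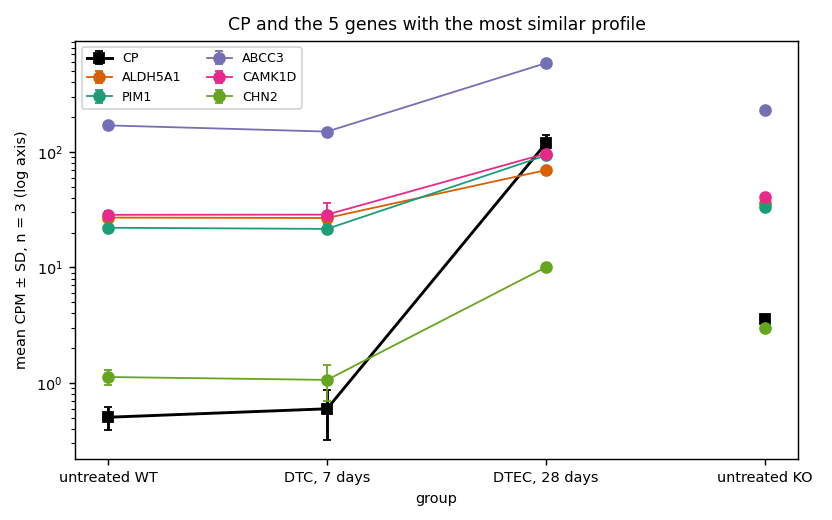
Mean CPM with SD over 3 libraries on a log axis for CP (black squares) and the 5 genes with the most similar profile (coloured circles), by group; lines join the WT groups and KO stands alone. The profiles resemble each other because the genes were chosen for it. CP ran from 0.505 CPM in WT untreated to 119 CPM in DTEC.

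The iron importers and the exporter were tested next. SLC40A1 (ferroportin) was at 10.6, 9.75 and 11.5 CPM in WT untreated, 28.9, 34.3 and 37.1 in DTC, 47.6, 51.9 and 52.2 in DTEC and 20.5, 18.1 and 17.4 in KO. No pair of these 4 groups overlapped, and the order was WT untreated, KO, DTC, DTEC. In edgeR's quasi-likelihood test with Benjamini-Hochberg adjustment over 17115 genes, SLC40A1 rose by 1.66 in DTC (SE 0.118, adjusted p = 2.2e-08) and by 2.25 in DTEC (SE 0.119, adjusted p = 6.67e-09) against WT untreated. From DTC to DTEC it rose by a further 0.59 (SE 0.113, adjusted p = 0.000474). In KO it was 0.81 above WT untreated (SE 0.118, adjusted p = 0.00134). SLC40A1 passed the test in all 4 comparisons and under each alternative setting tried.

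SLC11A2, the divalent metal transporter DMT1, was at 36.1, 35.3 and 34.6 CPM in WT untreated, 39.9, 34.3 and 32.6 in DTC, 96.4, 88.9 and 88.9 in DTEC and 38.2, 38.9 and 38.9 in KO. The DTEC libraries lay apart from all others, and the DTC libraries lay on both sides of WT untreated. SLC11A2 rose by 1.37 in DTEC against WT untreated (SE 0.0948, adjusted p = 6.59e-08, edgeR quasi-likelihood test) and by 1.36 against DTC (SE 0.0948, adjusted p = 4.94e-08). The difference between DTC and WT untreated was 0.01 (95% interval -0.19 to 0.21), and that between KO and WT untreated 0.13 (-0.071 to 0.33), neither of them called. The annotated gene has no match to the hairpin pattern searched above, which does not show that it lacks an iron-responsive element.

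TFRC, the transferrin receptor with 4 matches to the hairpin pattern in its 3′ untranslated region, was at 1142, 1078 and 1154 CPM in WT untreated and 856, 562 and 723 in DTC. In DTEC it was at 1246, 1109 and 932 CPM, overlapping WT untreated, and in KO at 1360, 1361 and 1391 CPM, above every WT untreated library. TFRC fell by 0.66 in DTC against WT untreated (SE 0.14, adjusted p = 0.000821, edgeR quasi-likelihood test) and was 0.62 higher in DTEC than in DTC (SE 0.14, adjusted p = 0.00186). DTEC and WT untreated differed by -0.04 (95% interval -0.34 to 0.26). With total counts alone in place of TMM the fall in DTC was 0.30 and no longer passed the test (adjusted p = 0.0694, range over the alternatives 1.16e-05 to 0.0694). In KO the difference of 0.29 (SE 0.14) was not called with all 12 libraries in the fit (adjusted p = 0.327), and was called at 0.31 when the 6 compared libraries were fitted alone (adjusted p = 0.000859, edgeR).

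Ferritin was the most abundant product among the 10 genes. Per kb of annotated exon, counted over all isoforms of a gene and so longer than any 1 transcript, FTL was at 2796 ± 179 and FTH1 at 1873 ± 151 CPM per kb in WT untreated. TFRC followed at 143 ± 5.15, GPX4 at 98.6 ± 7.57, NCOA4 at 89.3 ± 4.22, ACSL4 at 28.3 ± 1.53, AIFM2 at 17.9 ± 0.93, SLC11A2 at 3.48 ± 0.0754, SLC40A1 at 2.45 ± 0.2 and CP at 0.069 ± 0.016 CPM per kb (SD, n = 3). GPX4 and NCOA4 did not differ beyond their spread, and every other neighbour in this order did. In DTEC the order differed at several places. FTH1, at 2739 ± 136 CPM per kb, stood beside FTL at 2705 ± 390, and NCOA4, at 103 ± 3.64, beside GPX4 at 101 ± 13.2, each pair within its spread. At the lower end CP was at 16.3 ± 2.89, AIFM2 at 11.7 ± 0.223, SLC40A1 at 11.7 ± 0.601 and SLC11A2 at 9.01 ± 0.425 CPM per kb, with AIFM2 and SLC40A1 within their spread of each other.

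FTH1, the ferritin chain that oxidises iron, was at 4122, 3770 and 3512 CPM in WT untreated, 3828, 4076 and 4130 in DTC, 5568, 5280 and 5831 in DTEC and 3244, 3283 and 3029 in KO. The DTEC libraries lay above all others and the KO libraries below all others. FTH1 rose by 0.55 in DTEC against WT untreated (SE 0.0959, adjusted p = 0.000267, edgeR quasi-likelihood test) and by 0.47 against DTC (SE 0.0958, adjusted p = 0.000838). In KO the difference of -0.26 (SE 0.0957) was not called (adjusted p = 0.176), though the 3 KO libraries did not overlap WT untreated, and it was called at -0.23 when the 6 compared libraries were fitted alone (adjusted p = 0.0227, edgeR). In DTC it was 0.08 (95% interval -0.13 to 0.28).

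The light chain FTL, which favours iron storage in the ferritin core, was called in no comparison with all 12 libraries in the fit. It was at 2631, 2405 and 2329 CPM in WT untreated, 1963, 2028 and 2368 in DTC, 2174, 2180 and 2770 in DTEC and 2054, 2165 and 2168 in KO. DTC and DTEC overlapped WT untreated, and KO lay below it (-0.21, adjusted p = 0.404, edgeR). With the 6 compared libraries alone the KO difference was called at -0.18 (adjusted p = 0.0376, edgeR), the only one of the alternatives tried to call it. The ratio of FTH1 to FTL counts within a library, which no scaling can move, was 0.63 ± 0.032 on the log2 scale in WT untreated, 0.92 ± 0.108 in DTC, 1.24 ± 0.146 in DTEC and 0.58 ± 0.09 in KO (SD, n = 3). The DTC libraries (0.80 to 1.01) and the DTEC libraries (1.07 to 1.36) each lay above all WT untreated libraries (0.59 to 0.65). The DTEC ratio was 1.52 times that of WT untreated.

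Both ferritin genes have processed copies elsewhere in the genome that can take reads. The 25 FTH1 pseudogenes in the table summed to 0.831% of the FTH1 count in WT untreated, 0.739% in DTC, 0.693% in DTEC and 0.635% in KO, and the 16 FTL pseudogenes to at most 0.018% of FTL. Only 1 of the 25 rows and 1 of the 16 rows passed the filter and were tested, and neither was called higher in DTEC. FTH1 also overlaps BEST1 on the other strand, which was at 0.464 to 2.28 CPM as group means.

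**Figure D3:**
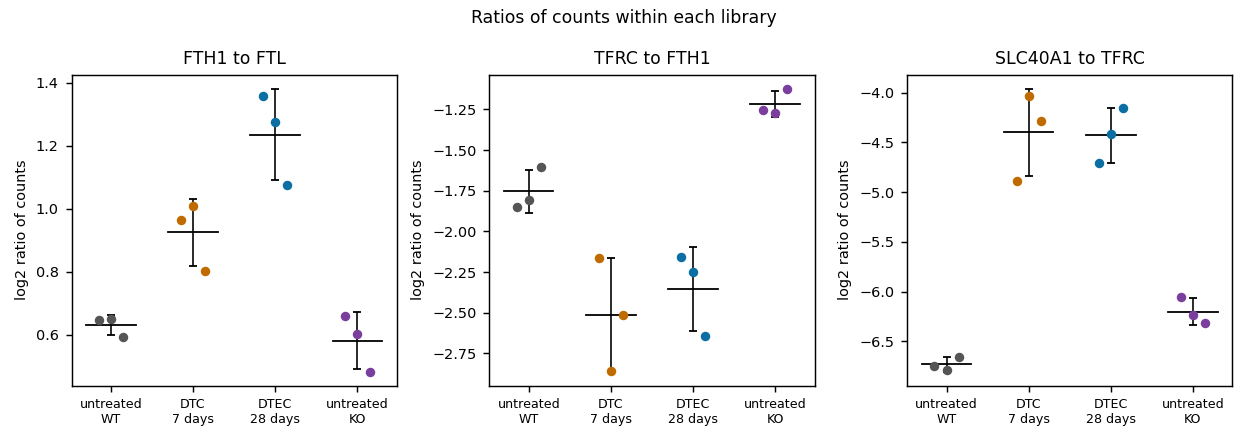
Log2 ratio of counts within each library for FTH1 to FTL, TFRC to FTH1 and SLC40A1 to TFRC, with 3 points a group, the mean as a line and the SD as a bar. The mean of FTH1 to FTL was 0.63 in WT untreated and 1.24 in DTEC, and SLC40A1 to TFRC was -4.40 and -4.43 in DTC and DTEC against -6.73 in WT untreated.

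Ratios between import, storage and export genes differed between the groups. The TFRC to FTH1 ratio was -1.75 ± 0.131 on the log2 scale in WT untreated, -2.51 ± 0.349 in DTC, -2.35 ± 0.258 in DTEC and -1.22 ± 0.081 in KO, with DTC and DTEC below and KO above every WT untreated library. The SLC40A1 to TFRC ratio was -6.73 ± 0.071 in WT untreated, -4.40 ± 0.439 in DTC, -4.43 ± 0.277 in DTEC and -6.20 ± 0.136 in KO. It was thus 5.03 times the WT untreated ratio in DTC, 4.93 times in DTEC and 1.44 times in KO. An exact permutation test of 3 libraries against 3 cannot give a p below 0.1, so the ratios are given without a test.

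NCOA4, which hands ferritin to the autophagosome so that its iron is released, was at 381, 346 and 365 CPM in WT untreated, 420, 366 and 414 in DTC, 438, 414 and 412 in DTEC and 295, 295 and 293 in KO. DTEC lay above and KO below all WT untreated libraries. Neither difference was called: DTEC was at 0.21 (SE 0.0887, adjusted p = 0.0602) and KO at -0.31 (SE 0.0888, adjusted p = 0.069, edgeR quasi-likelihood test). Both lay close to the threshold. The DTEC difference was called with total counts alone, with upper-quartile scaling, with the compared libraries alone and with DESeq2 (adjusted p = 0.00233 to 0.0152). The KO difference was called with the compared libraries alone (adjusted p = 0.00213, edgeR) and with DESeq2 (adjusted p = 0.00854).

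Of the ferroptosis genes, AIFM2 was called in both drug groups. It was at 91.5, 97.1 and 87.6 CPM in WT untreated, 64.0, 47.6 and 50.6 in DTC, 59.3, 59.7 and 61.4 in DTEC and 92.0, 95.6 and 93.2 in KO. Both drug groups lay below all untreated libraries of either genotype. AIFM2 fell by 0.77 in DTC (SE 0.108, adjusted p = 1.98e-05, edgeR quasi-likelihood test) and by 0.61 in DTEC (SE 0.107, adjusted p = 0.00027) against WT untreated. DTEC and DTC differed by 0.15 (95% interval -0.076 to 0.38), not called with all libraries. Without DTC replicate 1, the highest DTC library for AIFM2, that difference was 0.28 and was called (adjusted p = 0.00781, edgeR).

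GPX4, which reduces lipid peroxides with glutathione, was at 183, 214 and 200 CPM in WT untreated, 187, 191 and 235 in DTEC and 197, 212 and 204 in KO. In DTC replicate 1 it was at 130 CPM, and in replicates 2 and 3 at 278 and 264 CPM. The DTC libraries thus lay on both sides of WT untreated. GPX4 was called in no comparison, with differences of 0.17 in DTC (SE 0.211), 0.04 in DTEC (SE 0.211) and 0.04 in KO (SE 0.211). The 95% intervals were wide (-0.28 to 0.63 in DTC), and 1 library decided the DTC value. Without DTC replicate 1, GPX4 was 0.48 higher in DTC than in WT untreated (adjusted p = 0.00053, edgeR) and 0.42 lower in DTEC than in DTC (a log2 fold change of -0.42, adjusted p = 0.002).

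ACSL4, the acyl-CoA synthetase that loads polyunsaturated fatty acids into membranes, was at 191, 172 and 181 CPM in WT untreated, 234, 164 and 178 in DTC, 224, 205 and 163 in DTEC and 188, 170 and 173 in KO. All 4 groups overlapped. The differences from WT untreated were 0.08 in DTC (95% interval -0.21 to 0.38), 0.12 in DTEC (-0.18 to 0.42) and -0.03 in KO (-0.33 to 0.26).

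**Figure D4:**
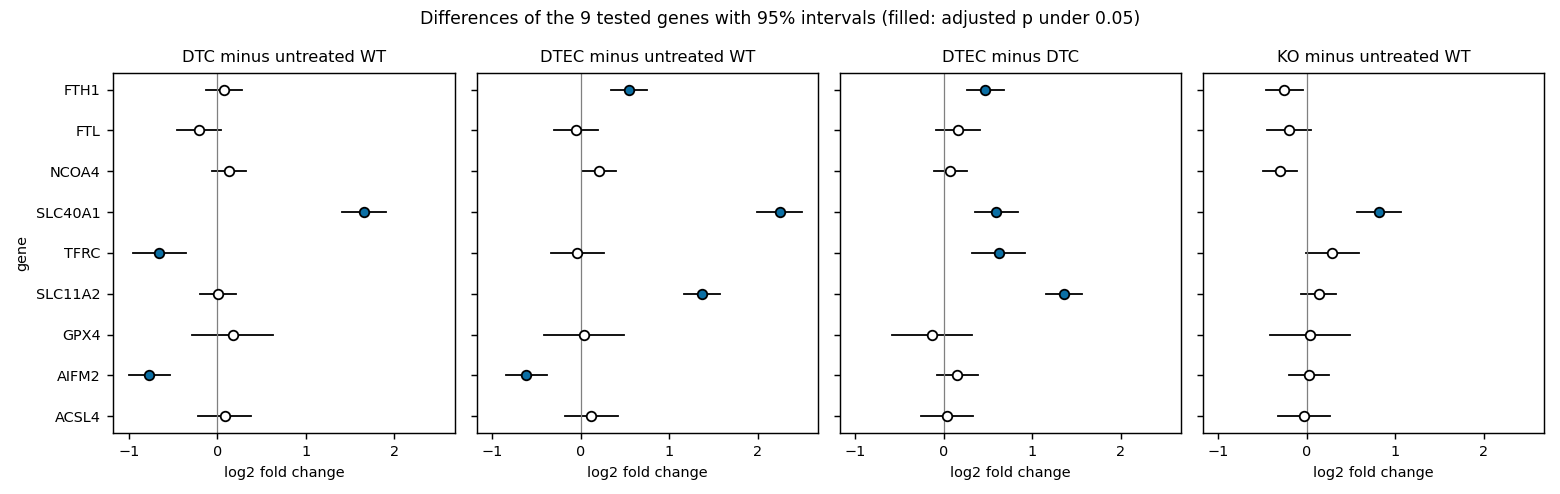
Log2 fold change with its 95% interval for the 9 tested genes in 4 comparisons; filled points passed an adjusted p of 0.05 in edgeR's quasi-likelihood test. SLC40A1 was higher in all 4 comparisons, FTH1 and SLC11A2 were higher in DTEC against both WT groups, and AIFM2 was lower in DTC and DTEC than in WT untreated.

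Counted over the 9 tested genes, 3 were called in DTC against WT untreated, where 67.3% of all tested genes were called: SLC40A1 was higher (34.0% of all genes were) and TFRC and AIFM2 were lower (33.3%). In DTEC against WT untreated 4 were called, against 52.3% of all genes: FTH1, SLC11A2 and SLC40A1 were higher (26.0%) and AIFM2 was lower (26.3%). In DTEC against DTC 4 were called against 55.4% of all genes, and FTH1, TFRC, SLC11A2 and SLC40A1 were all higher (28.8%, with 26.6% of genes lower). In KO against WT untreated SLC40A1 alone was called, against 4.31% of all genes (2.76% higher and 1.55% lower). The libraries of the groups did not overlap for 3, 5, 4 and 6 of the 9 genes in these comparisons. The same was not counted over all genes, so these numbers are not read as a result. With TMM scaling the share called in DTC against WT untreated lay below the background of all genes. In both comparisons with DTEC it was slightly lower than the background and near it. The medians of the 9 log2 fold changes were 0.08, 0.12, 0.16 and 0.02, beside 0.06, 0.02, -0.01 and -0.01 over all tested genes.

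The number called in DTC depended on the scaling. With total counts alone 7 of the 9 were called (77.8%), against 68.4% of all genes, and with upper-quartile scaling 7 against 68.0%. Both scalings called 5 in DTEC against WT untreated (55.6%), against 52.7% and 52.0% of all genes. With 9 genes, 1 gene is 11.1%, so the members' share lay near the background in both comparisons under these scalings. The count from DTC to DTEC was 4 (44.4%) against 55.5% and 55.6%. With total counts alone FTH1, SLC11A2, NCOA4, GPX4 and ACSL4 were added, at 0.37 to 0.53 on a scale whose median over all genes had itself moved up by 0.35, and TFRC was lost. Without DTC replicate 1, 4 were called in DTC against WT untreated (44.4%, against 70.0% of 17601 genes tested). In that fit 6 were called in DTEC against DTC (66.7%, against 60.3%), a share near the background.

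The wider pathways were read from 10 lists of iron, copper, haem and ferroptosis genes, 106 genes besides the 10 above, of which 97 were tested. In DTC against WT untreated 26 were called higher and 51 lower (79.4% called, median log2 fold change -0.30), beside 67.3% of all genes. In DTEC against WT untreated 25 were higher and 36 lower (62.9%, median -0.12), beside 52.3%. From DTC to DTEC 45 were higher and 25 lower (72.2%, median 0.24), beside 55.4%. In KO 4 were higher and 3 lower (7.22%, median -0.03), beside 4.31%. With TMM scaling the counts of each list below are read against the same shares of all genes. They were 34.0% higher and 33.3% lower in DTC, 26.0% and 26.3% in DTEC, and 28.8% and 26.6% from DTC to DTEC. In KO they were 2.76% and 1.55%. The balance of directions in the drug comparisons moved with the scaling. With total counts alone it was 39 higher and 30 lower in DTC, 32 and 26 in DTEC, and 32 and 30 from DTC to DTEC. In that fit 46.8% of all genes were higher and 21.6% lower in DTC, and 33.6% and 19.1% in DTEC. From DTC to DTEC the shares were 20.8% and 34.8%. List counts with total counts alone are read against these shares. Relative to the median of all genes, the median of the 97 genes lay at -0.36, -0.13 and 0.25 with either scaling.

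**Figure D5:**
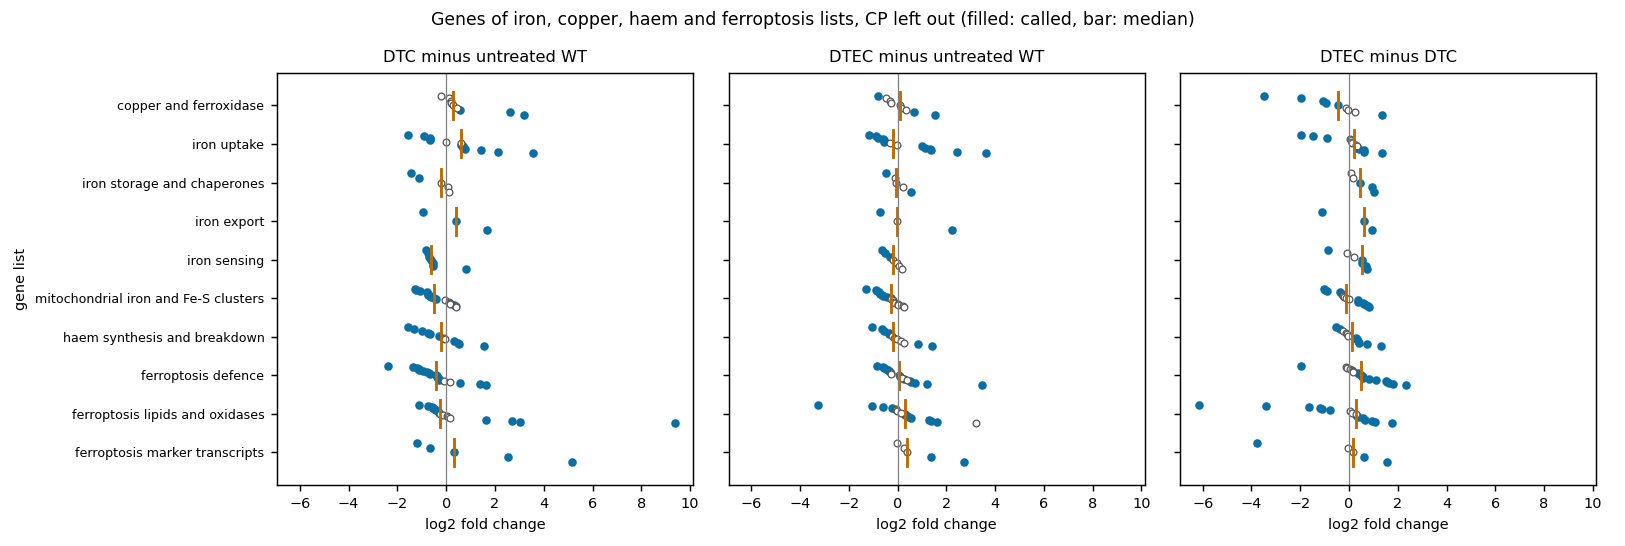
Log2 fold change of each tested gene in the 10 lists for 3 comparisons (filled points were called, bars mark the list median, CP left out). Iron sensing, mitochondrial iron and ferroptosis defence genes lay mostly below 0 in DTC with TMM scaling, and 13 of 20 ferroptosis defence genes were higher in DTEC than in DTC.

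The reductases STEAP4 and CYBRD1, which ready iron for uptake, rose in both drug groups. The iron uptake list (15 genes, 14 tested, TFRC and SLC11A2 among them) had 7 genes called higher and 5 lower in DTC (34.0% and 33.3% of all tested genes were) and 6 in each direction in DTEC (26.0% and 26.3% of all genes). STEAP4, a metalloreductase, was at 3.05, 2.09 and 2.48 CPM in WT untreated, 35.9, 25.0 and 30.1 in DTC and 45.7, 29.5 and 20.4 in DTEC, a rise by 3.57 (SE 0.273, adjusted p = 8.13e-08, edgeR) and 3.64 (SE 0.273, adjusted p = 2.32e-07). CYBRD1, a ferric reductase of the plasma membrane, was at 35.4, 33.8 and 34.6 CPM in WT untreated, 174, 138 and 147 in DTC and 225, 185 and 147 in DTEC, a rise by 2.14 and 2.42. For both genes every drug-treated library lay above every untreated one. STEAP3, the reductase that serves TFRC in the endosome, fell by 1.57 in DTC, from 297 ± 23.3 to 100 ± 3.42 CPM. LCN2, which carries iron bound to siderophores, rose by 1.31 in DTEC, from 169 ± 10.3 to 419 ± 31.8 CPM. The melanotransferrin gene MELTF and the zinc and iron importer SLC39A8 fell by 1.99 and 1.5 from DTC to DTEC.

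The iron chaperones PCBP1 and PCBP2 fell at 7 days. PCBP1, the chaperone that delivers iron to ferritin, was at 256, 261 and 263 CPM in WT untreated, 94.7, 94.6 and 101 in DTC and 179, 185 and 202 in DTEC. These groups did not overlap, and PCBP1 fell by 1.42 in DTC (SE 0.0849, adjusted p = 4.27e-09, edgeR) and by 0.46 in DTEC (SE 0.0833, adjusted p = 0.000343). Its relative PCBP2 fell by 1.13 in DTC and rose by 1.02 from DTC to DTEC, to 625 ± 7.12 CPM beside 674 ± 27.9 in WT untreated. Among export genes, the haem exporter FLVCR1 fell by 0.96 in DTC and rose by 0.93 from DTC to DTEC. The efflux pump ABCG2, which also carries haem, rose by 0.41 in DTC and fell by 0.72 in DTEC.

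Copper genes were read because ceruloplasmin carries copper. Of 9 tested besides CP, 3 were higher and none lower in DTC, where 34.0% of all genes were higher and 33.3% lower, and 2 were higher and 1 lower in DTEC, where 26.0% and 26.3% were. Between DTC and DTEC, where CP was higher in DTEC, 1 was higher and 5 were lower in DTEC (28.8% and 26.6% of all genes). The share higher in DTC was near that of all genes. In DTC 8 were higher with total counts alone, where 46.8% of all genes were, and 6 without DTC replicate 1, where 36.7% were. ATP7A, the pump that loads copper onto secreted enzymes, was at 14.4, 14.1 and 14.9 CPM in WT untreated, 20.8, 12.2 and 16.2 in DTC and 46.3, 43.2 and 36.7 in DTEC. It rose by 1.54 in DTEC against WT untreated (SE 0.156, adjusted p = 2.01e-06, edgeR) and by 1.36 against DTC. ATP7B, the hepatic relative that loads ceruloplasmin in liver, was at 8.49 CPM in WT untreated and 10.8 CPM in DTEC as means and was not called (adjusted p = 0.1, edgeR). The copper transporter SLC31A2 rose by 2.64 in DTC, from 4.81 ± 0.794 to 30.0 ± 1.39 CPM, and fell by 1.97 from DTC to DTEC. The chaperone ATOX1, which hands copper to ATP7A, fell by 0.79 in DTEC against WT untreated, and CCS, the copper chaperone of superoxide dismutase, rose by 0.57 in DTC.

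The iron-sensing list had 7 tested genes, of which 6 were lower and 1 higher in DTC. The iron-regulated transcription factors EPAS1 and HIF1A fell by 0.84 and 0.75. FBXL5, the ligase subunit that degrades IREB2 when iron is plentiful, rose by 0.83, from 15.6 ± 0.278 to 27.8 ± 2.21 CPM. With total counts alone 3 were lower and 1 higher, where 21.6% of all genes were lower and 46.8% higher. In DTEC against WT untreated 3 were lower and none higher, with HIF1A at -0.53 and BMP6, a ligand that drives hepcidin in liver, at -0.62, and EPAS1 at -0.32, which lost its call under 8 of 13 alternatives. From DTC to DTEC FBXL5 fell by 0.85, and ACO1, the cytosolic aconitase that becomes an iron regulatory protein, rose by 0.68 (adjusted p = 0.000668, edgeR).

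Most of the called mitochondrial iron genes were lower in both drug groups. Of 17 genes for mitochondrial iron and Fe-S cluster assembly, 10 were lower and 1 higher in DTC, and 9 were lower and none higher in DTEC (with total counts alone, 7 lower and 6 higher in DTC and 6 lower and 1 higher in DTEC). Without DTC replicate 1, 10 were lower and 5 higher in DTC. IBA57, an Fe-S assembly factor, fell by 1.25 in DTC and by 0.90 in DTEC, and the desulfurase NFS1 by 1.08 in DTC. Of 12 haem genes, 6 were lower and 4 higher in DTC and 5 lower and 2 higher in DTEC, where total counts alone gave 3 lower and 4 higher. The biliverdin reductase BLVRA fell by 1.55 in DTC, while HMOX2, the constitutive haem oxygenase, fell by 1.05 and the synthesis enzyme ALAD rose by 0.84 in DTEC.

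Ferroptosis defence genes were mostly lower at 7 days and went both ways at 28 days. Of 20 genes, GPX4 and AIFM2 included, 15 were lower and 3 higher in DTC against WT untreated, where 33.3% of all genes were lower and 34.0% higher, with a median log2 fold change of -0.40. With total counts alone 8 were lower and 4 higher, where 21.6% of all genes were lower and 46.8% higher. In DTEC against WT untreated 7 were lower and 6 higher (median 0.06), and from DTC to DTEC 13 were higher and 1 lower (median 0.51; 10 and 2 with total counts alone). SLC7A11, the cystine importer that feeds glutathione synthesis, was at 317, 303 and 318 CPM in WT untreated, 185, 103 and 124 in DTC and 481, 444 and 285 in DTEC. It fell by 1.19 in DTC (SE 0.206, adjusted p = 0.000174, edgeR) and rose by 1.55 from DTC to DTEC (SE 0.207, adjusted p = 3.08e-05), and its difference of 0.37 between DTEC and WT untreated was not called. GCLM, the regulatory subunit of the first glutathione synthesis enzyme, fell by 1.37 in DTC, from 613 ± 39.0 to 237 ± 48.2 CPM.

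Other arms of defence were each at their own level. DHODH, the mitochondrial dihydroorotate dehydrogenase that reduces coenzyme Q, was at 19.5, 20.1 and 18.3 CPM in WT untreated, 4.49, 3.09 and 3.61 in DTC and 9.20, 10.8 and 12.4 in DTEC. It fell by 2.38 in DTC (SE 0.147, adjusted p = 5.99e-09, edgeR) and by 0.84 in DTEC (SE 0.136, adjusted p = 0.000144). GCH1, which makes the antioxidant tetrahydrobiopterin, rose by 1.4 in DTC and fell by 1.95 from DTC to DTEC. CBS, the first enzyme of transsulfuration, rose by 3.44 in DTEC against WT untreated, from 4.11 ± 0.214 to 44.8 ± 4.68 CPM. SCD, which makes monounsaturated fatty acids, rose by 1.20 in DTEC, from 510 ± 8.89 to 1172 ± 13.5 CPM, and by 2.33 from DTC to DTEC.

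Lipid and oxidase genes that favour ferroptosis did not share 1 direction. Of 17 tested with ACSL4, 4 were higher and 8 lower in DTC (7 and 3 with total counts alone), and 8 were higher and 4 lower in DTEC. SAT1, a polyamine acetyltransferase linked to lipid peroxidation, rose by 3.01 in DTC, from 19.9 ± 0.937 to 161 ± 42.0 CPM, and by 1.37 in DTEC. The reductase CYB5R1 rose by 1.65 in DTC, while LPCAT3, which inserts polyunsaturated chains into phospholipids, fell by 1.12. The lipoxygenase ALOX5 rose by 1.28 in DTEC and the mitochondrial channel VDAC3 fell by 1.05. A list of ferroptosis marker transcripts, SLC7A11 and HMOX1 among them, had 5 tested genes. In DTC 3 were higher and 2 lower (34.0% and 33.3% of all genes were), or 3 and 1 with total counts alone. In DTEC 2 were higher and none lower (26.0% and 26.3%), or 4 higher with total counts alone. From DTC to DTEC 2 were higher and 1 lower (28.8% and 26.6%). HMOX1, the inducible haem oxygenase, was at 40.9 ± 4.30 CPM in WT untreated and 50.3 ± 3.00 in DTC, a rise by 0.30 (adjusted p = 0.0218, edgeR) that was lost with no filter (adjusted p = 0.0757) and without WT untreated replicate 3 (0.0961).

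Ceruloplasmin is also an acute phase protein of the liver, so the other 18 genes of an acute phase list were read beside it. Only 7 of them passed the filter. In DTC against WT untreated 4 were higher and none lower, and in DTEC 6 were higher and none lower (median 1.31), where 34.0% and 26.0% of all genes were higher. From DTC to DTEC 4 were higher and 3 lower. The complement gene C3 rose by 0.72 in DTC and by 1.27 in DTEC, from 180 ± 6.86 to 297 ± 68.2 and 434 ± 68.0 CPM. The serum amyloid gene SAA1 was at 2.12, 2.77 and 1.59 CPM in WT untreated, 50.2, 52.4 and 61.8 in DTC and 7.89, 3.82 and 2.06 in DTEC. It rose by 4.67 in DTC (SE 0.397, adjusted p = 4.96e-07, edgeR) and fell by 3.58 from DTC to DTEC, so its peak came at 7 days, when CP was low. SAA2, a near-identical neighbour with which reads may be shared, fell by 3.54 from DTC to DTEC.

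In KO, where SLC40A1 alone of the 9 tested genes was called with all 12 libraries in the fit, the wider lists gave few calls. Of 20 ferroptosis defence genes 1 was higher and none lower, and of 17 mitochondrial iron genes 1 was lower. LCN2 rose by 0.48 (adjusted p = 0.0136) and the metalloreductase STEAP1 fell by 0.65 (adjusted p = 0.0241, edgeR quasi-likelihood test). The iron-sulfur protein CISD1 fell by 0.42 (adjusted p = 0.0353) and FECH, which inserts iron into haem, fell by 0.40 (adjusted p = 0.0265, edgeR). The calls of LCN2 and STEAP1 were lost without 1 library in 4 and 5 of 6 such fits, and those of CISD1 and FECH in all 6 and with total counts alone or no filter. SLC40A1 kept its call in each of them.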

How the data were processed

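PolyA RNA of 12 cultures was sequenced as 101 bp pairs from TruSeq Stranded libraries. The authors deposited expected counts, the estimated counts per gene before any scaling. Per the submitters' processing notes the tools were RSEM 1.3.1, Bowtie2 2.5.2 and DESeq2 1.40.2 with GRCh38. The annotation release and strand setting are not given in the sources used here. Of the values of 15935 genes with a mean of at least 10, 71.4% were whole numbers, the rest being reads shared among features. Symbols were found for 99.9% of 62754 identifiers, and 92.8% were in GENCODE 29, which gave positions, exon lengths and sequences. The table held 0 columns of other samples.

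Values were rounded to whole counts. The fit used edgeR 4.0.16 with limma 3.58.1 under R 4.3.3: filterByExpr, TMM scaling, robust quasi-likelihood F tests on all 12 libraries with 1 mean per group, Benjamini-Hochberg adjustment over 17115 genes, and a call at an adjusted p under 0.05. Differences are log2 fold changes with their SE and ± is the SD over 3 libraries. Likeness to CP was Pearson's r of log2 CPM with a prior count of 2. Depth was 25572691 to 38373679 estimated counts a library, and 3 counts corresponded to 0.082 to 0.115 CPM, which covers counting error only. The scripts were tested on simulated data.

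The 10 genes and the gene lists were chosen with earlier results of these data known. From each list the text names, per comparison, up to 3 called genes with the largest change and a mean of at least 10 CPM, and the 5 genes most like CP. Alternatives were other scalings, no filter, the compared libraries alone, a replicate block, DESeq2 1.42.0, and leaving out each library. Replicate numbers were not taken to pair libraries. Some genes that this rule picks are not reported here.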

Additional observations from a re-analysis of the deposited data

Results flagged for a closer look

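For 4 of the 9 tested genes the effects of 7 and 28 days of erlotinib against WT untreated differed, by the direct test of DTEC against DTC in edgeR. The differences were 0.47 for FTH1, 0.62 for TFRC, 1.36 for SLC11A2 and 0.59 for SLC40A1 on the log2 scale, with all 3 DTEC libraries above all 3 DTC libraries in each case. TFRC was lower than in WT untreated at 7 days and overlapped it at 28 days, while SLC40A1 was higher at both times. Across all tested genes 55.4% passed the same test. No group had the 4 samples that a search for single outlying samples needs.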

How the results depend on the processing

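Differences that were called for the 9 tested genes kept their direction under all alternatives, and of them TFRC in DTC lost its call, with total counts alone (-0.30). Over these genes 412 values kept their direction and side of the threshold, 23 passed it newly, 1 lost it and 32 changed sign, none of the last past the threshold before or after. With total counts alone the changed signs were FTL in DTC (0.14), in DTEC (0.12) and from DTC to DTEC (-0.024), TFRC in DTEC (0.13), ACSL4 in KO (0.035), and from DTC to DTEC NCOA4 (-0.11), AIFM2 (-0.032) and ACSL4 (-0.15). With upper-quartile scaling they were FTL in DTC (0.078), in DTEC (0.067) and from DTC to DTEC (-0.011), TFRC in DTEC (0.076), and from DTC to DTEC NCOA4 (-0.098), AIFM2 (-0.017) and ACSL4 (-0.13).

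With 1 library left out in turn, signs changed within these ranges. In DTEC against WT untreated they were -0.18 to 0.034 for FTL, -0.12 to 0.059 for TFRC and -0.0803 to 0.12 for GPX4. In KO they were -0.0027 to 0.11 for GPX4 and -0.0596 to 0.022 for ACSL4. In DTC they were -0.049 to 0.25 for ACSL4, -0.043 to 0.12 for SLC11A2 and -0.12 to 0.42 for CP, the last turning without DTC replicate 1. From DTC to DTEC they were -0.0011 to 0.23 for FTL, -0.026 to 0.094 for NCOA4, -0.42 to 0.016 for GPX4 and -0.11 to 0.19 for ACSL4.

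In KO 738 genes were called, and 1147 with no filter, 2656 with the compared libraries only, 1154 with DESeq2 (669 genes without an adjusted p) and 321 to 426 without 1 library. Of the 9 genes, 5 and 2 were called in KO with the compared libraries only and with DESeq2, and 1 when any 1 library was left out. The share of all genes called was not computed for these fits, so the member counts are not read as a result. They show that the count of 1 gene in KO depends on the fit. In DTC 7 were called with total counts alone and 7 with upper-quartile scaling, and 3 to 4 without 1 library. For other named genes 1065 values kept their call and 40 lost it, with no change of sign. The list counts under other scalings and without DTC replicate 1 were added after the data had been seen. The causes of these changes were not tested.

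The labels do not say that a replicate number marks a shared day or batch, so the numbers were not taken as a pairing. Same-numbered deviations from group means correlated at -0.03 to 0.18 over 18 pairs, 4 of them over 0.1. Each best match was sought among the 3 libraries of another group, so 1 in 3 would share a number if numbers meant nothing. Of 36 best matches 23 had the same number, a hint from the data that numbers may be shared in part. With a replicate block 11775, 9255, 9732 and 887 genes were called in DTC, in DTEC, from DTC to DTEC and in KO, and 3, 4, 4 and 1 of the 9 genes. Counts of 11 to 27 limit the levels of CP in WT untreated and DTC.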
